A study of Mus musculus with 17 samples.

Results

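Myeloid cells that had entered the brain from the circulation were compared with the brain's own microglia when both were Trem2-knockout. The comparison takes 4 libraries of Trem2-knockout cells transplanted into Trem2-knockout 5xFAD mice (S32 to S35, the sample numbers in the column names) and 3 libraries of microglia from untransplanted Trem2-knockout 5xFAD mice (S25 to S27), 7 of the 17 libraries of the series. All genes with a normalized read count of 10 or more in at least 3 of these 7 libraries were tested, which kept 11372 of 13501 genes. The transplanted cells are labelled circulation-derived myeloid cells, and their hosts had bone marrow transplantation (BMT) together with PLX5622, an inhibitor of the receptor CSF1R that depletes microglia. The microglia are labelled as untreated. Both groups share the Trem2 knockout and the 5xFAD transgenes, which drive human mutant amyloid precursor protein and presenilin from a neuronal promoter and give mice with amyloid plaques. The source of the cells and the treatment of the mouse change together, and the 2 cannot be told apart. The cells were sorted alive as CD45+CD11b+ cells, a gate that microglia, other macrophages, monocytes and neutrophils pass, and any microglia that the hosts still had would pass it too. The labels used here give neither age nor sex, and they do not say whether the libraries came from separate animals, so p-values measure only the spread between these samples.

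Microglia arise in the embryo from yolk sac progenitors and keep themselves by local division. Their identity depends on the transcription factor Sall1 and on TGF-beta and CSF1R signals from the brain. When microglia are removed, bone marrow-derived cells can fill the niche. They take on part of the microglial form, but are known to keep markers of their blood origin such as Ms4a7 and to express little Sall1. TREM2 is a lipid-sensing receptor that signals through the adaptor TYROBP and is needed for the full disease-associated microglia (DAM) program around plaques. A comparison of 2 knockout populations therefore holds TREM2 status equal, while cell source and treatment of the mouse still change together.

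The 7 libraries held 16163565 to 30606394 reads, recovered from the deposited values as whole multiples of 1 step per library. The knockout microglia library S26 stood apart from S25 and S27. Its mean absolute log2 difference was 0.661 to the other knockout microglia but 0.324 to normal microglia (non-5xFAD mice, 3 libraries, used only as a reference level), whereas S25 and S27 differed from normal microglia by 0.709 and 0.693. The chi-square of counts per degree of freedom was 9.86 between S25 and S27 and 136.1 and 136.5 between S26 and each of them, against 17.6 to 90.5 for pairs of transplants. Reads from mitochondrial genes made up 0.26% and 0.25% in S25 and S27 and 0.07% in S26, and Lars2, a mitochondrial leucyl-tRNA synthetase gene, took 1.69%, 2.09% and 0.82%. Among the transplants S34 lay farthest from its group (0.504, the others 0.29 to 0.361). Results that rest on S26 are therefore given with it, without it, and with S26 as the single microglia library (without S25 and S27), where its spread is taken from the other groups. Values are listed in the order S25, S26, S27 for microglia and S32, S33, S34, S35 for transplants.

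Trem2 (chromosome 17, 48346401 to 48354147, GRCm38) followed the labels, with reads below those of normal microglia but not absent. Its normalized read count was 5516, 4367 and 5965 in knockout microglia and 4041, 4782, 5211 and 3962 in transplanted cells, against 31205 to 37459 in normal microglia. The groups overlapped, and the log2 difference of −0.23 did not pass the test (SE 0.15, limma with Benjamini-Hochberg adjusted p = 0.296). Tyrobp, its signaling adaptor, differed by 0.02 (adjusted p = 0.957) and was expressed at 36587 to 55866 in all 7 libraries. The leukocyte antigen CD45 of the sorting gate, encoded by Ptprc, did not pass the test (0.52, adjusted p = 0.0740), while Itgam (CD11b) fell to 2678 to 3510 in transplants from 4363 to 6470 in microglia (−0.67, adjusted p = 0.00109). Both gate genes were named after their values were seen.

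Of the 11372 genes 2915 differed at an adjusted p under 0.05 (25.6%): 1399 were higher in transplanted cells (12.3%) and 1516 lower (13.3%). Counts of list members called with all 7 libraries are to be read beside these shares. At least 2-fold differences were reached by 623 higher genes (5.48%) and 1072 lower genes (9.43%). The groups did not overlap in 3157 genes (27.8%), and the median difference over all genes was −0.00 on the log2 scale. Without S26 the calls numbered 2250 higher and 2076 lower (38.0% in all), and all 2915 genes kept their direction. With S26 as the single microglia library they numbered 1055 and 1125 (19.2%). In that fit 1362 of the 1399 higher and 1498 of the 1516 lower genes kept their direction, and 712 and 759 of them their call.

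**Figure D1:**
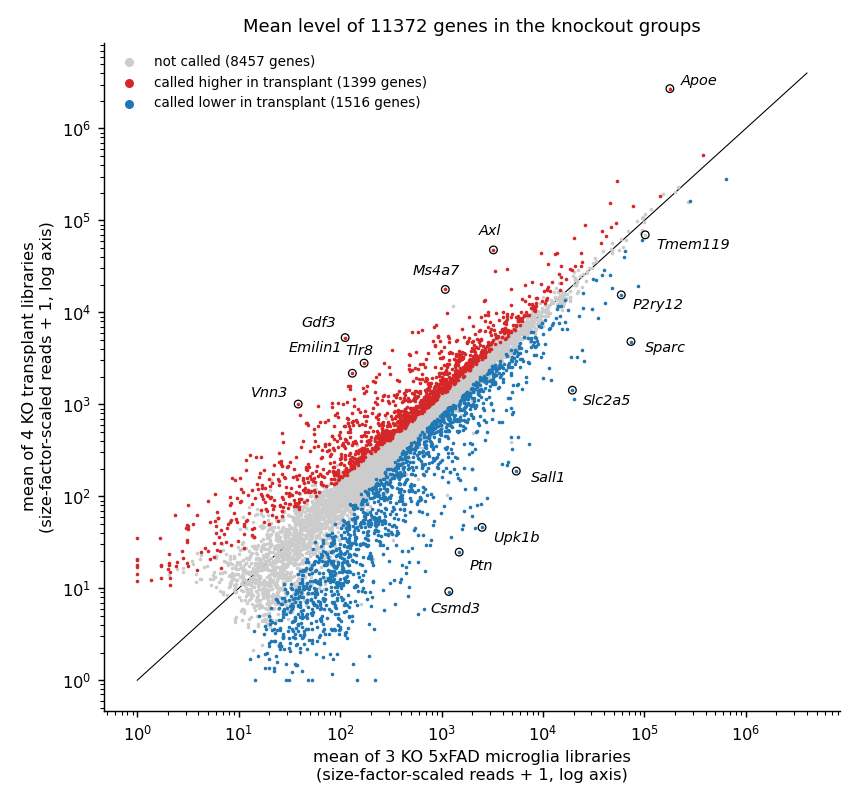
Mean normalized read count plus 1 of each tested gene in the 3 knockout 5xFAD microglia libraries (horizontal, log axis) and the 4 knockout transplant libraries (vertical, log axis). Red points are the 1399 genes called higher and blue points the 1516 called lower in transplants, with circled genes named, and Apoe sits far above the line of equality at the highest levels.

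Many genes that mark microglia fell. Sparc, a matricellular protein abundant in microglia, was 73111, 71862 and 75915 in knockout microglia and 7324, 4397, 3814 and 3724 in transplants, a log2 difference of −3.99 (SE 0.20, limma adjusted p = 6.73e-11). No transplant library came near a microglia library. P2ry12 (chromosome 3, 59216272 to 59262871), the ADP receptor that steers microglial processes, was 67152, 45584 and 64608 against 13970, 13307, 19783 and 14994 (−1.93, SE 0.19, adjusted p = 5.4e-07). Slc2a5, the fructose transporter of microglia, went from 16242, 25733 and 16478 to 2126, 1201, 830.9 and 1537 (−3.82, adjusted p = 5.08e-09). Siglech, a sialic acid-binding lectin, was level across the microglia libraries (30390, 30961 and 30624) and lower in every transplant (10507, 9133, 10438 and 13065; −1.52, adjusted p = 2.1e-08).

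In the list of homeostatic microglia genes 22 of 30 fell and 1 rose, with a median log2 difference of −1.16 against −0.00 for all tested genes. Members that fell included Ecscr (log2 −4.29), an endothelial-type receptor also found in microglia, Upk1b (−5.84), a tetraspanin, and Crybb1 (−3.94), a crystallin. Gpr34 (−1.35), a lysophosphatidylserine receptor, and Olfml3 (−0.67), a secreted olfactomedin-like protein, fell less. The counts changed little without S26 (22 lower, 3 higher, beside 18.3% and 19.8% of all genes) or without S25 and S27 (23 lower, 0 higher, beside 9.89% and 9.28%). The single riser was P2ry6, a UDP receptor linked to phagocytosis (0.47, adjusted p = 0.0391), which was named after its values were seen. Its call ended without S25, S27, S32, S33 or S35 (0.32 to 0.45), and with S26 as the only microglia library the value was −0.05.

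A second set of microglial genes did not differ past the threshold. Tmem119, a membrane protein used to tell microglia from other macrophages, was 75270, 150624 and 79525 in microglia and 82663, 66549, 48326 and 81007 in transplants (−0.50, limma adjusted p = 0.0841). The transplants overlapped S25 and S27 and lay below S26, whose value is near that of normal microglia (151191 to 168308). Csf1r, the growth factor receptor that PLX5622 blocks, was 153808, 339016 and 156174 against 265943, 237524, 146677 and 270502 (0.15, adjusted p = 0.702). Without S26 Csf1r was higher in transplants by 0.53 (adjusted p = 0.0399), and without S25 and S27 it stood at −0.60 (adjusted p = 0.131). Cx3cr1, the fractalkine receptor, differed by −0.23 (adjusted p = 0.285), and Fcrls, an Fc receptor-like protein of microglia, by 0.22 (adjusted p = 0.155). The transplanted cells thus carried Fcrls at 85689 to 104698, beside 81955 to 87855 in the microglia.

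Sall1 (chromosome 8, 89027235 to 89044162), which holds the microglial identity program in place, was 3644, 9289 and 3420 in knockout microglia and 308.9, 114.8, 87.3 and 237.6 in transplants. This was a 29.4-fold lower level (log2 −4.88, SE 0.40, limma adjusted p = 4.31e-08), and the groups lay far apart. Its relative Sall3 fell from 1112, 2352 and 1287 to 72.4, 50.4, 7.5 and 40.5 (−5.47, adjusted p = 2.88e-05). Of 20 tested transcription factors of microglia and macrophages 3 fell and 3 rose (median −0.12), a share near that of all tested genes (13.3% lower and 12.3% higher). Among the risers were Ets2, an ETS-family factor, from 370.7 to 548.3 up to 748.8 to 990.3 (1.04), and Bhlhe40, a repressor tied to macrophage lipid responses, from 134.6 to 230.3 up to 347.2 to 688.7 (1.50).

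The 12 greatest falls named, all chosen for groups that do not overlap, included Upk1b, Sall1, Sall3 and the following genes. Csmd3, a large protein with CUB and sushi domains, was 1375, 823 and 1332 in microglia and 7.7, 0.9, 6.4 and 17.9 in transplants (log2 −7.37, SE 0.70, limma adjusted p = 3.31e-07). Mlph, which links melanosome-type vesicles to myosin, fell by 5.59, and Mrc2, a receptor for collagen uptake, fell by 5.47. Also lower were Liph, a phosphatidic acid-selective lipase (−5.13), Nav3, a neuron navigator protein (−5.05), Jam2, a junctional adhesion molecule (−4.97), Sgce, epsilon-sarcoglycan (−4.86), and Klk8, a secreted serine protease (−4.67). All of these were also expressed in normal microglia, with Klk8 at 1577 to 2279. Ptn (pleiotrophin), a heparin-binding growth factor, differed in this: it was 2117, 313 and 2039 in knockout microglia, 133.6 to 287.7 in normal microglia and 16.8 to 31.9 in transplants (−5.53, adjusted p = 1.82e-05).

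**Figure D2:**
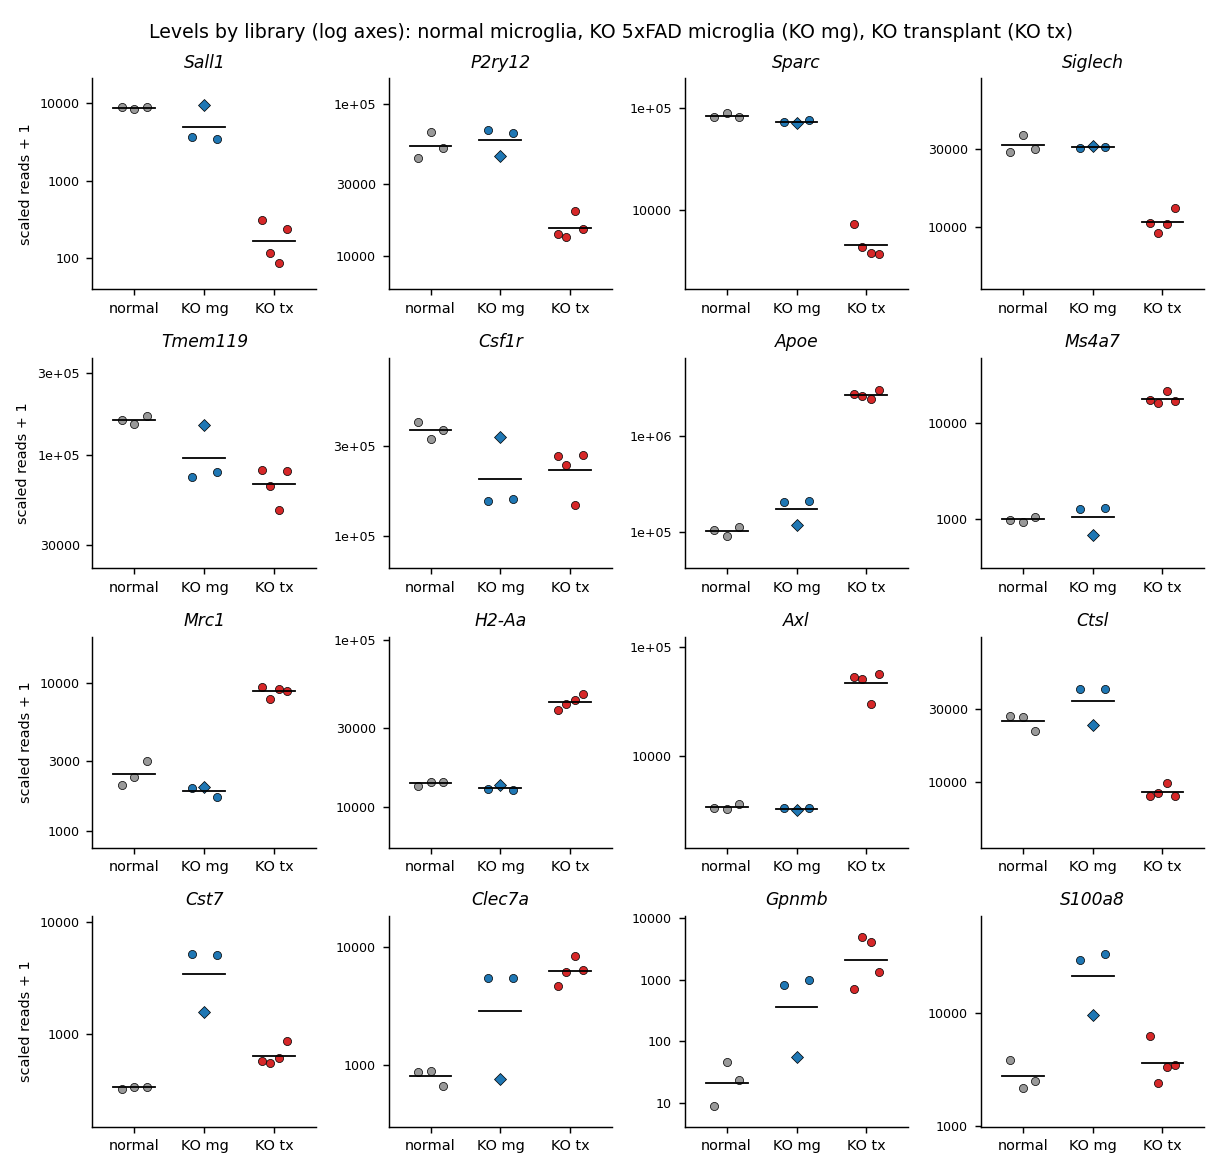
Normalized read count plus 1 by library (log axes) of 16 genes in normal microglia (3 libraries), knockout 5xFAD microglia (KO mg, 3 libraries, with S26 as a diamond) and knockout transplants (KO tx, 4 libraries); horizontal lines are geometric means. Sall1 and Sparc lie lower and Apoe, Ms4a7 and Axl higher in every transplant, while Tmem119, Csf1r, Clec7a and Gpnmb split the microglia group between S26 and the other libraries.

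Genes known from brain macrophages of hematopoietic origin rose. Ms4a7 (chromosome 19, 11321039 to 11336146), a tetraspan membrane protein, was 1275, 679.7 and 1309 in knockout microglia and 17019, 15783, 21410 and 16785 in transplants, 16.9-fold higher (log2 4.08, SE 0.21, limma adjusted p = 1.13e-10). Clec12a, an inhibitory lectin of blood myeloid cells, was 962.3, 455.3 and 1200 against 6590, 6947, 9571 and 6120 (3.15). Klra2, a Ly49-family receptor, went from 118.2, 74.4 and 163.7 to 1005, 1344, 2259 and 1719 (3.73). For all of them the lowest transplant was several times the highest microglia library.

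Of the 25 tested genes of the hematopoietic-origin list 16 rose and 4 fell, with a median of 1.38. Cybb, the catalytic subunit of the phagocyte NADPH oxidase, rose by 3.10, Tmem176a by 2.76, Lyz2 (lysozyme) by 2.36, Tmem176b by 2.23 and Apobec3, a retroviral restriction factor, by 0.54. Ccr2, the receptor that calls monocytes into tissue, went the other way: 1896, 735.5 and 1589 in microglia and 586.8, 444.3, 789.3 and 842.5 in transplants (−1.01, limma adjusted p = 0.0201). S26 lay inside the transplant range, and the call ended without S25, S27 or S33 (−0.74 to −0.87). The 4 genes that fell became 1 without S25, 1 without S27 and 2 without S33, while the 16 that rose numbered 15 to 17 without S26 or without S25 and S27.

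Border-associated macrophages are the resident macrophages of the meninges and perivascular space. Their list split into 6 of 19 genes higher and 5 lower (median −0.11), beside 12.3% and 13.3% of all genes. Mrc1, the mannose receptor CD206, was 1962, 1983 and 1701 in microglia and 9384, 7822, 9215 and 8902 in transplants (log2 2.23, limma adjusted p = 5.29e-09), and Pf4, a platelet-type chemokine also made by border macrophages, rose by 1.65. Cp (ceruloplasmin), a ferroxidase that handles iron, rose by 3.58, from 275.8 to 404.3 up to 3663 to 4521. The scavenger receptor Cd163 (−2.54) and the lectin Cd209f (−3.24) fell, so the defining genes of these cells did not move together.

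The greatest rises were likewise named by size among genes whose groups do not overlap. Gdf3, a ligand of the TGF-beta superfamily, had the greatest rise under the naming rule, 140.8, 60.2 and 132.2 against 7242, 4876, 5284 and 3844, or 49.3-fold (log2 5.62, SE 0.33, limma adjusted p = 7.96e-10). Vnn3, of the vanin pantetheinase family, rose by 4.74, and Emilin1, an extracellular glycoprotein of elastic fibers, by 4.12. Tlr8, an endosomal RNA sensor, rose from 96.3 to 152.8 up to 1812 to 2838 (4.05), and Ahr, a ligand-activated transcription factor, from 47.7 to 72.2 up to 721.1 to 1194 (3.95). Sorbs3 (vinexin), an adhesion adaptor, and Sh2d1b1 (EAT-2), an adaptor of SLAM-family receptors, both rose by 3.62, and Col14a1 (collagen XIV) by 3.60. These genes were low in normal microglia too, with Gdf3 at 39.2 to 55.5 and Vnn3 at 10.2 to 37.1.

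Apoe (chromosome 7, 19696109 to 19699188), the lipid-carrying apolipoprotein and main genetic risk gene of late-onset Alzheimer's disease, changed most in absolute terms. Its normalized read count was 203068, 119275 and 211979 in knockout microglia and 2719623, 2648221, 2452587 and 3000447 in transplanted cells, 15.6-fold higher (log2 3.97, SE 0.19, limma adjusted p = 6.3e-11). Apoe alone took 12.3% to 14.3% of the reads of the transplants and 0.66% to 1.21% of those of the microglia. S26 was lowest, near the 91272 to 111538 of normal microglia, and the log2 difference was 3.70 without it and 4.50 against it alone. Because a share of this size lowers all other shares, upper-quartile rescaling was tried. It put the median log2 difference of all genes at −0.05 and left Apoe called. Under it 1227 genes were called higher and 1668 lower, against 1399 and 1516. Like the size factors of the deposited values, this scaling gives a single dominant gene little weight. The trial therefore cannot measure how far the Apoe share shifted other genes.

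Of 30 genes of lipid handling 11 rose and 6 fell (median 0.12), beside 12.3% and 13.3% of all genes. The scavenger receptors rose, Msr1 from 156.5 to 358.8 up to 2081 to 3992 (log2 3.43) and Cd36 from 396.2 to 558.2 up to 2501 to 5226 (2.84). Of the lipases named, Mgll, the monoglyceride lipase, was 1199 to 1555 in microglia and 148.1 to 258.7 in transplants (−2.79), and Lpl, lipoprotein lipase, was 1572, 492.5 and 1404 against 190.1, 394.8, 339.8 and 139.4 (−2.07, limma adjusted p = 0.00033). The Lpl groups were close at S26, and against S26 alone the difference of −1.01 was not called (adjusted p = 0.107). Of 25 genes of cholesterol synthesis 1 rose and 2 fell, no more than the 12.3% and 13.3% of all genes. Without S26 3 rose and 3 fell, beside 19.8% and 18.3%.

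The DAM program was split rather than higher or lower. Of 31 stage 2 genes, those that depend on TREM2 in the published model, 10 rose and 13 fell (median 0.17). Axl (chromosome 7, 25757273 to 25788705), a receptor tyrosine kinase for apoptotic cells, was 3284, 3151 and 3298 in knockout microglia, no higher than in normal microglia (3280 to 3617), and 53276, 50953, 30173 and 56622 in transplants (log2 3.84, SE 0.16, limma adjusted p = 9.57e-12). Itgax (CD11c) rose from 638.4, 483.8 and 647.1 to 965.1, 1801, 1230 and 909.1 (1.01), and Ank, a pyrophosphate transporter, by 0.65. Other members were lower in every transplant than in every microglia library. Cst7, an inhibitor of lysosomal cysteine proteases, was 5177, 1576 and 5148 against 577.2, 550.7, 605 and 860.4 (−2.44, adjusted p = 1e-05). The cysteine cathepsin Ctsl (−1.99), the chemokine Ccl6 (−2.346) and the serine protease inhibitor Serpine2 (−3.07) also fell.

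Some stage 2 genes varied within a group. Clec7a (dectin-1), a beta-glucan receptor of plaque microglia, was 5450, 757.4 and 5497 in microglia and 4619, 6170, 8332 and 6371 in transplants (log2 1.14, limma adjusted p = 0.0818). Without S26 the Clec7a difference was 0.19 (adjusted p = 0.491), and against S26 alone 3.04 (adjusted p = 6.45e-07). Gpnmb, a lysosomal glycoprotein, was 801.9, 54.7 and 979.9 against 703.6, 4888, 4105 and 1317 (2.56, adjusted p = 0.0284), and its call ended without S26, S33 or S34 (values of 1.23 to 2.23). Spp1 (osteopontin) ran from 701.8 to 26711 within the transplants and did not pass the test (2.23, adjusted p = 0.11). The median of the stage 2 list was −0.36 without S26 and 0.42 without S25 and S27, and it changed sign also without S33 (−0.03) or S34 (−0.07). Of the 10 stage 1 genes, which do not need TREM2 in that model, 6 rose and 0 fell (median 0.42; 4 or 5 rose with any 1 library left out). Besides Apoe and Lyz2 they included Fth1, the ferritin heavy chain (0.90), and Timp2, a metalloproteinase inhibitor (0.61).

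MHC class II proteins present antigen to CD4 T cells. Of 10 tested MHC class II genes 7 rose and 1 fell (median 1.45). H2-Aa was 12913, 13675 and 12646 in knockout microglia and 38178, 41476, 44153 and 47660 in transplants (log2 1.71, SE 0.18, limma adjusted p = 1.35e-06). H2-Ab1 rose by 1.77, H2-Eb1 by 1.59 and Cd74, the invariant chain that guards the peptide groove, by 1.81. H2-DMa, which helps to load peptides, rose by 1.58, whereas H2-Oa, which restrains H2-DM, fell by 1.33, from 736 to 1015 down to 302.5 to 352.3. Of 14 MHC class I genes 11 rose and 0 fell (median 0.65), with H2-K1 at 1.11 and H2-D1 at 0.99. Reads of such paralogs can be split between near-identical copies, so single class I values are uncertain.

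Promoter letters are shown for 2 class II genes that rose, from a family known to be driven through a module that ends in a CCAAT box, and for a riser and a faller with the core of the ETS factor PU.1, the main factor of myeloid genes. The sequences are the 150 bases before the RefSeq start (GRCm38.p6), 5′ to 3′ on the gene's strand, with CCAAT or its reverse complement ATTGG in capitals for the first 2 and GGAAGT or its reverse complement ACTTCC in capitals for the others. H2-Aa lies at chr17:34287824-34287973 (minus strand), H2-Eb1 at chr17:34305717-34305866 (plus strand), Ms4a7 at chr19:11336147-11336296 (minus strand, 1 of 2 RefSeq windows) and P2ry12 at chr3:59262986-59263135 (minus strand).
H2-Aa: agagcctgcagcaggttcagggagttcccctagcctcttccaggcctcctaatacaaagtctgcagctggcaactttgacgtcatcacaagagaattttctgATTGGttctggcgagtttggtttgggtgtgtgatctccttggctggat
H2-Eb1: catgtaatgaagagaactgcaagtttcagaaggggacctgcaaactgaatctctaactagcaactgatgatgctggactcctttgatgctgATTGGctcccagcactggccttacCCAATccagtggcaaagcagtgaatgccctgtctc
Ms4a7: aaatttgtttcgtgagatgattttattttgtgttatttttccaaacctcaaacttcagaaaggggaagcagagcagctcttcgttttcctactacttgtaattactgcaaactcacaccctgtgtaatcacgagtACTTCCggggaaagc
P2ry12: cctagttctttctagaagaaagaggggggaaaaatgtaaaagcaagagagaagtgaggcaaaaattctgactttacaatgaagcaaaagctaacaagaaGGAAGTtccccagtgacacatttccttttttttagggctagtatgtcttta
The letters CCAAT, on either strand and chosen after the values were seen, stood within 250 bases before the start in 7 of the 7 class II genes with a RefSeq window, and in 3720 of 9168 tested genes with one (40.6%). GGAAGT was present before 25.5% of the higher, 26.3% of the lower and 27.8% of all tested genes. The AP-1 letters TGACTCA were present before 5.36%, 4.75% and 3.95%. The share with the PU.1 letters was near that of all genes in both directions.

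**Figure D3:**
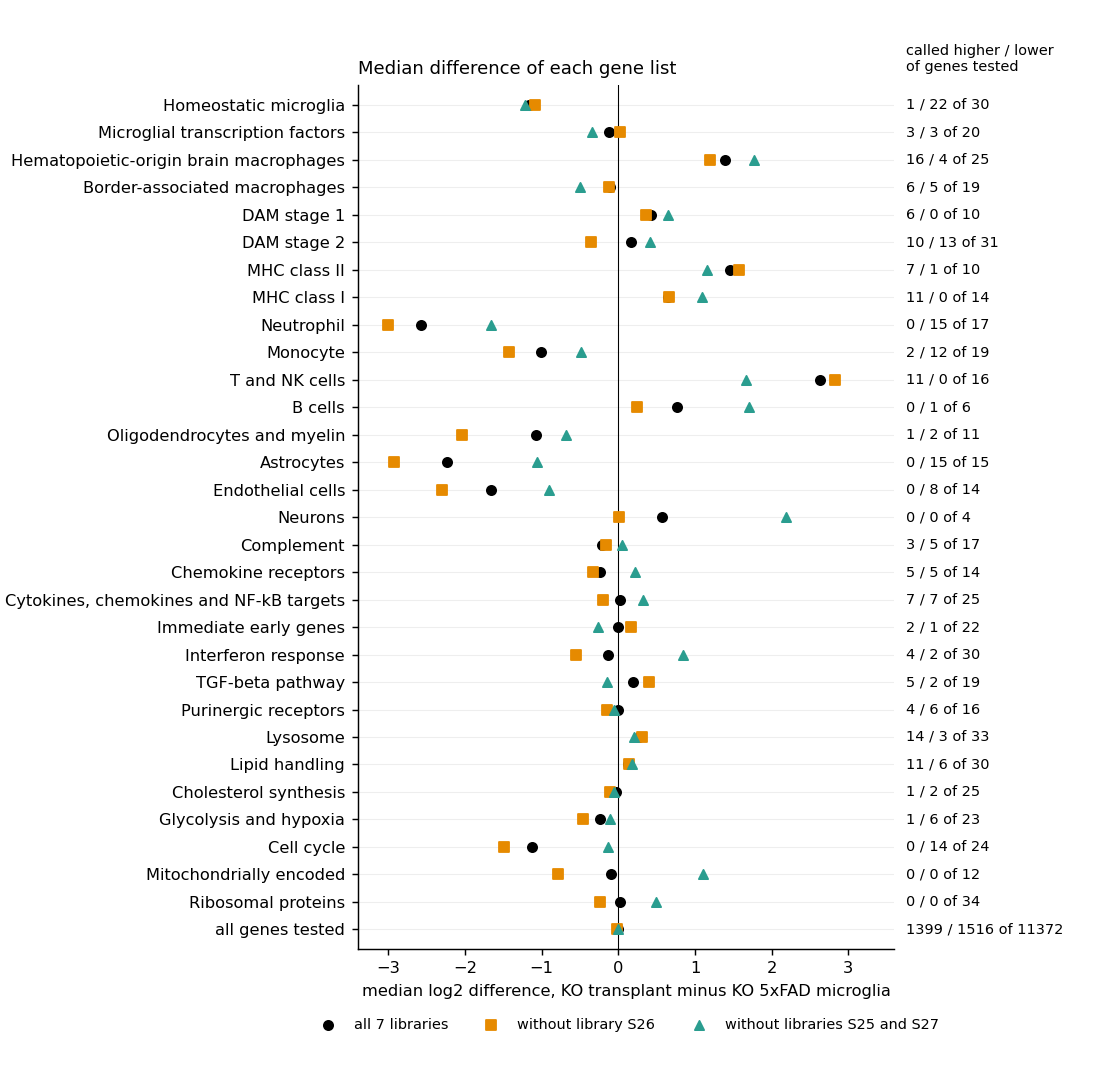
Median log2 difference (transplant minus microglia, horizontal axis) of the tested members of 30 gene lists and of all tested genes, with all 7 libraries (circles), without S26 (squares) and without S25 and S27 (triangles); numbers at the right are genes called higher and lower of those tested. The homeostatic, MHC and hematopoietic-origin lists keep their side under all of these fits, while interferon, mitochondrially encoded and DAM stage 2 genes change side with S26. So do the ribosomal protein, TGF-beta, immediate early, cytokine, chemokine receptor, complement and microglial transcription factor lists.

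Lysosomal genes rose more often than they fell, 14 against 3 of 33 (median 0.27), beside 12.3% and 13.3% of all genes. Without S25, S32, S33 or S35 9 of them rose. The cathepsins changed in both directions: Ctsc, which activates serine proteases, rose by 1.66 and Ctsh, an aminopeptidase, by 0.90, while Ctsl and Ctsf fell, Ctsf by 1.47. Of 17 complement genes 3 rose and 5 fell, beside 12.3% and 13.3% of all genes (median −0.21). Cd93, a receptor once described for C1q, rose from 111 to 155.4 up to 721.1 to 869.9 (log2 2.63, limma adjusted p = 5.83e-09), and C3ar1, the C3a receptor, from 8431 to 10076 up to 19834 to 21017 (1.11). C4b, a component of the classical pathway, fell by 2.48. Of 16 purinergic genes 4 rose and 6 fell, beside 12.3% and 13.3% of all genes. Along with P2ry12, the adenosine receptor Adora3 fell by 3.37. The ATP-gated channel P2rx4 rose by 1.58 and the UDP-sugar receptor P2ry14 by 2.60.

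TGF-beta maintains the microglial state. Of 19 genes of its pathway 5 rose and 2 fell, beside 12.3% and 13.3% of all genes. With any 1 library left out 5 to 8 rose and 2 or 3 fell. The median was 0.19, and it changed sign to −0.15 with S26 as the single microglia library. Tgfbi, a TGF-beta-induced matrix protein, was 2495, 3024 and 2335 in microglia and 14971, 13818, 11637 and 13276 in transplants (log2 2.36, limma adjusted p = 5.07e-11). Pmepa1, an induced feedback inhibitor, rose by 1.32 and Nrros, which presents latent TGF-beta on microglia, by 0.57. Eng (endoglin), a co-receptor, fell from 1085, 3564 and 1344 to 455.6, 393, 267.4 and 348.8 (−2.27). The response genes Tgfbi and Pmepa1 and the co-receptor Eng thus moved in opposite directions.

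Chemokine receptors and their ligands changed in both directions. Of 14 receptors 5 rose and 5 fell, beside 12.3% and 13.3% of all genes (3 fell without S25, S27 or S33). Ccr1 rose from 632.6 to 974.6 up to 3584 to 5900 (log2 2.55, limma adjusted p = 7.15e-09), Cxcr4, the bone marrow homing receptor, by 3.51 and Cxcr3 by 2.58. Among 25 cytokines, chemokines and NF-kB targets 7 rose and 7 fell, beside 12.3% and 13.3% of all genes. Of these targets 4 rose without S25 and 3 without S27 or S33. Cxcl16, a transmembrane chemokine and scavenger of oxidized lipid, was 2820, 2430 and 2810 in microglia and 13416, 12821, 13950 and 14106 in transplants (2.34, adjusted p = 9.57e-12). The chemokines Ccl9 (−3.44), Ccl4 (−2.505) and Ccl3 (−2.21) fell.

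Interferon-response genes followed S26. With all libraries 4 of 30 rose, near the 12.3% of all genes, and 2 fell (median −0.14), and 1 to 3 rose with any 1 library left out. Without S26 2 rose and 11 fell (median −0.55), beside 19.8% and 18.3% of all genes. With S26 as the only microglia library 12 rose and 0 fell (median 0.84), beside 9.28% and 9.89%. Their summed level was 32236, 15466 and 33756 in microglia and 29123, 29700, 31665 and 27923 in transplants, so that all transplants lay between S26 and the other microglia. Bst2 (tetherin), which holds budding virus at the membrane, rose under all of these fits, from 2006 to 3030 up to 8635 to 10535 (log2 1.84, limma adjusted p = 1.13e-08). Ifi27l2a was 3135, 1001 and 3530 against 962.3, 901.7, 1004 and 788.3 (−1.29), and was at −0.14 (adjusted p = 0.775) against S26 alone.

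Cell-cycle genes split the same way. Of 24 such genes 14 fell and 0 rose (median −1.13), beside 13.3% and 12.3% of all genes. Without S26 19 fell (median −1.50), beside 18.3% of all genes. Without S25 or S27 6 fell, beside 1200 or 1172 of all 11372 genes. Without both S25 and S27 the median was −0.14. Stmn1, a microtubule regulator of dividing cells, was 2029, 741 and 2193 in microglia and 402.5, 322, 362.2 and 388.6 in transplants (log2 −2.02, limma adjusted p = 0.000316). Ccna2 (cyclin A2) was 531.5, 188.2 and 430.3 against 144.8, 116.7, 148.1 and 135.3 (−1.36), and Tyms, thymidylate synthase (−1.23), and Mcm5, a helicase subunit (−0.85), also fell. Normal microglia held Ccna2 at 101.8 to 120.1, within or below the range of the transplants. Of 23 genes of glycolysis and hypoxia 6 fell and 1 rose, beside 13.3% and 12.3% of all genes. Falls numbered 3 without S27, 4 without S25 and 11 without S26, the last beside 18.3% of all genes. Pdk1, which keeps pyruvate out of the mitochondrion, fell by 1.20 and Slc16a3, the lactate exporter, fell by 1.12.

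Genes that respond to handling of tissue were checked because the cells were dissociated. Of 22 immediate early and heat shock genes 2 rose and 1 fell, beside 12.3% and 13.3% of all genes (median −0.01). Without S26 5 rose and 1 fell, beside 19.8% and 18.3% of all genes (median 0.17). Against S26 alone the median had the opposite sign (−0.27). The risers were Hspa1a and Hspa1b, encoding near-identical inducible HSP70 proteins whose reads can be split between the copies. Hspa1a was 370.1, 4324 and 328.4 in microglia and 7532, 5059, 3289 and 5652 in transplants (log2 2.67, limma adjusted p = 0.00675). S26 was as high as the transplants: the Hspa1a difference was 3.88 without S26, ended as a call without S25 (2.11) or S27 (2.03), and was 0.25 (adjusted p = 0.814) against S26 alone. Hspa1b gave 3.08, 4.46 without S26 and 0.32 against S26 alone. The median of 34 ribosomal protein genes was 0.02, with −0.24 without S26 and 0.49 without S25 and S27. That of 12 mitochondrially encoded genes was −0.09, with −0.79 without S26 and 1.11 without S25 and S27.

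Several marker lists of other cell types moved with the groups, but not all. Of 4 tested neuron genes 0 were called, and of 6 B cell genes 1 fell. Of 11 oligodendrocyte and myelin genes 1 rose and 2 fell, beside 12.3% and 13.3% of all genes. The summed level of 17 neutrophil genes was 139855, 60446 and 150602 in knockout microglia and 40518, 17801, 17873 and 23314 in transplants, against 20531 to 35008 in normal microglia, and 15 of the 17 fell (median −2.58). S100a8 was 29831, 9755 and 33425 against 6323, 2384, 3344 and 3470 (log2 −2.55, limma adjusted p = 7.73e-05), and S100a9, its partner in calprotectin, fell by 2.69, and Camp, an antimicrobial peptide of neutrophil granules, fell by 2.63. Both groups held these transcripts, and every microglia library was above every transplant. Among 19 monocyte genes 12 fell and 2 rose (8 fell without S25, and 3 without S25 and S27). Ly6c2 (−1.89), Plac8 (−2.38) and Hp, haptoglobin (−2.42), fell, while the integrin Itgal (LFA-1) rose by 2.85. Their part in the results above was not tested beyond a fit with the mean log2 level of the neutrophil list as a covariate. It called 449 genes higher and 371 lower. The covariate was itself tied to the groups, at 10.58 to 12.14 in microglia and 8.05 to 10.04 in transplants. Such a fit can lose calls whatever their cause. In that fit 433 and 362 of the 1399 and 1516 genes kept their call and 1392 and 1481 their direction. The genes that kept their call included Apoe at 4.45, Ms4a7 at 4.53, Axl at 4.26 and Sall1 at −4.41.

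T and NK cell genes rose in 11 of 16 cases (median log2 2.63; 7 without S27, and 0 without S25 and S27). Their summed level was 1037, 2725 and 1199 in microglia and 10361, 4309, 3649 and 8961 in transplants. Cd3e, a T cell receptor subunit, was near 0 in microglia (8.2, 33.9 and 4.3) and 280.9, 197.9, 166.2 and 431.2 in transplants (4.40, limma adjusted p = 0.000823), with Lck at 3.12 and Il2rb at 3.37. The B cell marker Cd79a, at 32.8 to 261.6, did not pass the test. All 15 astrocyte-list genes fell (median −2.23), among them Slc1a3, a glutamate transporter, at 4930, 3440 and 4924 in these microglia and 3707 to 4325 in normal microglia, against 131.6 to 326.2 in transplants (−4.41). Clu (clusterin) fell by 2.19. Against S26 alone 5 of the 15 fell. Of 14 endothelial genes 8 fell, 3 without S27, 4 without S25, 5 without S33 and 1 without S25 and S27, led by Pecam1 (CD31, also on myeloid cells) at −3.09. Calls of 2 defining markers ended without S25 or S27: Gfap of astrocytes (−1.17 and −1.18) and Cldn5 of endothelium (also without S33). Cldn5 was 268.3, 63.5 and 229.8 against 14 to 73.5 (−2.31, and −1.93 to −2.04 without those libraries). The myelin gene Mbp overlapped between the groups (−0.38, adjusted p = 0.376). The CD45+CD11b+ gate would remove most T cells, astrocytes, endothelial cells and oligodendrocytes, and the part of such cells in these values was not tested. In bulk libraries fewer cells of a type and less RNA per cell cannot be told apart.

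**Figure D4:**
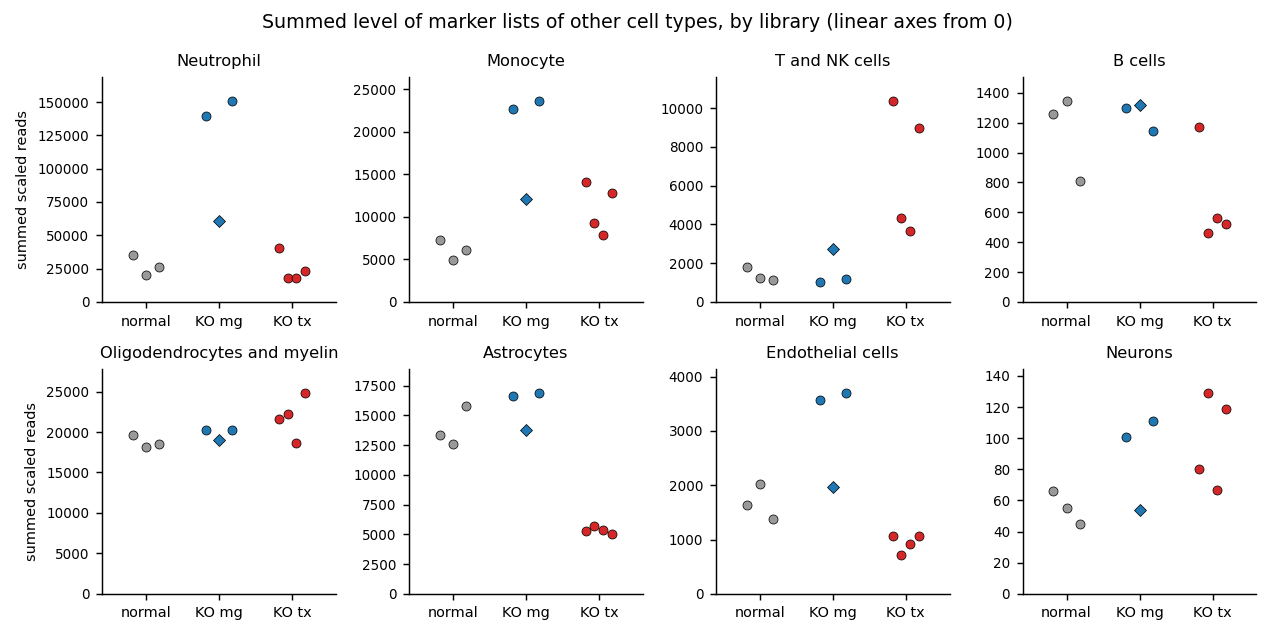
Summed normalized read count of 8 marker lists of other cell types by library (linear axes from 0) in normal microglia, knockout 5xFAD microglia (KO mg, S26 as a diamond) and knockout transplants (KO tx). Neutrophil and endothelial levels are higher in S25 and S27 than in S26 and lower in all 4 transplants, and T and NK cell levels are higher in all 4 transplants.

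The same contrast was taken in the wild-type pair, 4 libraries of Trem2 wild-type transplanted cells (hosts also Trem2-knockout 5xFAD, BMT and PLX5622) against 3 of wild-type 5xFAD microglia, and the difference of the 2 differences was tested. The contrasts share no library, but the wild-type transplants and wild-type microglia also differ in the genotype of the mouse around them. In the wild-type pair 1619 genes were called higher (14.2%) and 1675 lower (14.7%). The difference of the differences was called for 342 genes (3.01%), 111 higher in the knockout pair (0.976%) and 231 lower (2.03%). Of the 2915 genes of the knockout contrast 228 had a called difference of differences and 2687 did not. This count rests heavily on S26: it was 1689 without that library and 160 without S25 and S27. It was also 182 to 221 without S22, S23, S25, S27, S30 or S31, and 627 without S28. With the neutrophil level as a covariate 2 genes were called. That mean log2 level was 10.58 to 12.14 in knockout and 7.52 to 7.81 in wild-type microglia. It was thus tied to the contrast, and the lost calls do not show their cause.

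Ank, the pyrophosphate transporter, was an example. It was higher in knockout transplants by 0.65 (limma adjusted p = 0.000396) and lower in wild-type transplants by 2.32, a difference of 2.97 (SE 0.17, adjusted p = 1.03e-08). Ank was 1481, 1205 and 1424 in knockout microglia and 9526, 9553 and 10630 in wild-type microglia, while the transplants overlapped: 2292, 2491, 1944 and 1888 with knockout and 1985, 1956, 2007 and 1981 with wild-type donors. Axl gave 3.84 in the knockout and 1.99 in the wild-type pair (difference 1.85, adjusted p = 0.000117), and it too lay apart in microglia (3151 to 3298 against 14160 to 14292) and overlapped in transplants (30173 to 56622 against 52568 to 58919). Slc44a1, a choline transporter (difference 1.05), and Cd34, a sialomucin (1.29), were called in the same direction, as were Itgax (1.49) and Bhlhe40 (1.90). The Cd34 fall in the knockout pair itself (−0.46) was not called without S25 (−0.45) or S33 (−0.37).

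Neutrophil and blood myeloid genes gave the opposite sign. S100a9 was lower by 2.69 in the knockout pair and higher by 1.93 in the wild-type pair, a difference of −4.62 (SE 0.53, limma adjusted p = 0.000113). Its level was 9615 to 29465 in knockout and 720.1 to 1199 in wild-type microglia, and 1905 to 5302 and 2057 to 3977 in the transplants, which overlapped. Pglyrp1, a neutrophil peptidoglycan-recognition protein, behaved likewise (−4.13). Ifitm2, an interferon-induced membrane protein, and Pirb, an inhibitory MHC class I receptor, differed by −2.0 and −1.62, but for these the transplants did not overlap: Pirb was 801.1 to 955.8 with knockout and 1258 to 1478 with wild-type donors. Ms4a7 (−1.78), Gdf3 (−2.38) and H2-Aa (−1.26) rose in both pairs and less in the knockout pair. Of the 342 called genes 209 (61.1%) had transplants that overlapped between genotypes and microglia that did not, against 18.9% of all tested genes. The reverse held for 34 (9.94%, against 9.95%). Neither side overlapped for 93 (27.2%, against 3.97%), and both did for 6 (1.75%, against 67.2%). These genes were chosen by a test on the same libraries, so a difference on at least 1 side was built in. Groups of 3 microglia libraries also come apart more easily than groups of 4 transplants. The shares therefore cannot decide which side differs.

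**Figure D5:**
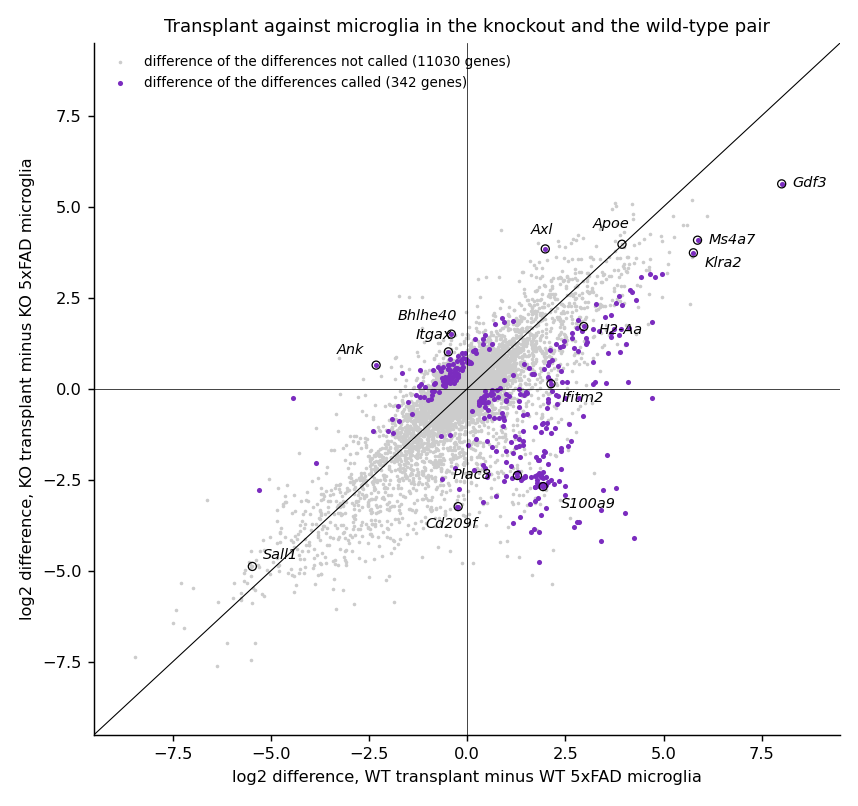
Log2 difference of transplant minus microglia in the wild-type pair (horizontal) and the knockout pair (vertical) for each tested gene, with the 342 genes whose difference of differences was called in purple and the line of equality drawn. Sall1 and Apoe lie near the line, Ank and Axl above it, and S100a9 and Plac8 below 0 in the knockout and above 0 in the wild-type pair.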

How the data were processed

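RNA of sorted brain myeloid cells was sequenced in 17 libraries of 5 groups. The deposited signal values are read counts that the authors divided by 1 size factor per library; the submitters' processing notes list bcl2fastq, STAR 2.5.2b, HTSeq, RSEM, DESeq2 3.17, mm10 and GRCm38.p6, with no role for each tool and no annotation stated. Values were whole multiples of 1 step per library (100% of low values within 0.02 reads), which gave reads back. Values were tested as log2(value + 1) with limma 3.58.1 (R 4.3.3), with 1 mean per group over all 17 libraries and Benjamini-Hochberg adjustment over 11372 genes (called under 0.05). Fold changes of low genes are understated on this scale. The filter left out 2129 genes. Alternatives used edgeR 4.0.16 and DESeq2 1.42.0 on the recovered reads, other pseudocounts, filters, weights and scalings, left-out libraries and a neutrophil score. The statistics were tested on simulated data. Named genes are Trem2, Tyrobp, a marker panel and the 12 largest rises and 12 largest falls among non-overlapping genes above the median level. The rule also takes up to 4 genes per list with the smallest p. For the difference of the knockout and wild-type contrasts it takes 4 called genes each way. Some genes that meet this rule are not reported here. The members and lists were chosen with earlier results of these data known. Gene positions come from GENCODE and promoter sequences from RefSeq, both on GRCm38.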

Additional observations from a re-analysis of the deposited data

Results flagged for a closer look

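The difference of the transplant-against-microglia contrasts between knockout and wild type was called (limma, Benjamini-Hochberg) for 27 of the 130 genes named. It was positive for Ank (2.97), Bhlhe40 (1.90), Axl (1.85), Itgax (1.49), Cd34 (1.29) and Slc44a1 (1.05). Among neutrophil and monocyte genes it was negative for Camp (−4.63), S100a9 (−4.62), S100a8 (−4.61), Pglyrp1 (−4.13), Hp (−3.89), Plac8 (−3.66) and Ly6c2 (−3.63). Among macrophage genes it was negative for Cd209f (−3.01), Gdf3 (−2.38), Klra2 (−2.02), Clec12a (−1.79), Ms4a7 (−1.78), Pirb (−1.62), Pf4 (−1.55), Lyz2 (−1.42) and Ccr1 (−1.33). It was also negative for Ifitm2 (−2.0), Clu (−1.87), C4b (−1.83), H2-Eb1 (−1.33) and H2-Aa (−1.26).

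Among the 4 knockout transplant libraries 1 library lay far from the others, by a test on the gap relative to the range, for 9 of 130 genes, and chance gives about 1 in 20. S34 was the library for Gpr34 (24076, the others 16011 to 16496), P2ry6 (7660, the others 9858 to 10192), Cp (4521), Emilin1 (1808, the others 3089 to 3204) and Ccl9 (548.6). S32 was the library for Fth1 (74721), Hp (696.8) and Cd79a (261.6), and S35 for Serpine2 (2181).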

How the results depend on the processing

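Of the 117 named genes that were called, 110 kept the call without any 1 library. With S26 as the single microglia library 1 of the 117 changed direction, and others lost their call. Many of the 117 were named for small p-values or non-overlapping groups in these same libraries, so a high share of kept calls was built in. Without S26 116 kept the call, against 1291 of 1399 higher and 1387 of 1516 lower genes over all. Of the 117, edgeR and DESeq2 on the recovered reads kept 114 and 115, and the neutrophil covariate 84. With array weights the knockout contrast gave 6269 genes (3160 higher, 3109 lower), the wild-type contrast 6110 and the difference of the contrasts 4524 (2379 higher, 2145 lower). With the neutrophil covariate, which itself differed between the groups, these were 820 (449 and 371), 1627 and 2 (2 and 0). Without any 1 library they were 2202 to 4326 (1030 to 2250 higher, 1172 to 2076 lower), 2333 to 3625 and 182 to 1689 (31 to 866 higher, 151 to 823 lower). The 7 libraries alone gave 893 higher genes. Averaging the closest libraries gave 1950 wild-type genes and 76 differences (12 higher, 64 lower), DESeq2 838 differences (294 and 544), and S26 as the single microglia library 160 (85 lower). The cause was not tested. Values changed sign against S26 alone for Trem2 (0.033), Csf1r (−0.60), P2ry6 (−0.054) and Mbp (0.415). Tyrobp changed sign with array weights (−0.21), upper-quartile rescaling (−0.031), and ranged from −0.158 to 0.148 without any 1 library. Csf1r changed sign with averaged libraries (−0.035), and ranged from −0.04 to 0.530 without any 1 library. No paired analysis was possible because the columns of the compared groups carry no replicate number. With 3 and 4 libraries a group, the spread between libraries limits the precision more than the read depth.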
